A study of Saccharomyces cerevisiae with 7 samples.

Results

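No-go decay reporters stalled by (CGA)12 or by (AAA)12 were compared within dom34Δ cells and within rps3 cells, which takes in 4 of the 7 libraries of the series. The members were chosen by their labels: the CGA and the AAA library of each strain, restricted to the reporter positions from 344 nt upstream of position 950 up to position 950, which come before either repeat. Each library is a map of where the 5'-fragments of the reporter mRNA end. The question was where these ends lay with (CGA)12 relative to (AAA)12, above all in the last 100 nt before the repeat, and which differences were seen in both strains. All 345 positions of the span had reads in all 4 libraries.

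A ribosome that cannot move on along an mRNA is met from behind by the ribosomes that follow it, and in yeast the mRNA of such a queue is cut by an endonuclease in no-go decay. The 5'-fragment carries a 3'-end at or near the place of the cut, and that end can be moved by ribosomes that run to it and by exonucleases. CGA, an arginine codon read through an inosine-adenosine wobble pair, and AAA, a lysine codon that makes both a poly-lysine chain and an A-rich mRNA, are among the best known stalling sequences in yeast when repeated.

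The groups in the order used here are dom34Δ with (CGA)12, dom34Δ with (AAA)12, rps3 with (CGA)12 and rps3 with (AAA)12. All derive from BY4741 and all lack SKI2 (YLR398C), a helicase that feeds 3'-ends to the cytoplasmic exosome, so that the fragments persist. The dom34Δ cells also lack DOM34 (YNL001W), a factor that splits stalled ribosomes, and the rps3 cells carry R116A/R117A in RPS3 (YNL178W), a protein of the small subunit that lines the mRNA entry tunnel. The reporter is a plasmid copy of PGK1 (YCR012W), a glycolytic gene, driven by the GAL1 promoter in galactose medium, with 12 CGA or 12 AAA codons placed at position 950. A cell with both DOM34 and RPS3 intact was not analysed here. Each library pooled RNA of at least 2 cultures, so there is 1 library per condition and no spread between replicates, and a property of a condition and one of its library cannot be told apart. The differences between repeats are therefore given with no test, and the 95% intervals cover counting error only: the reads were amplified and carry no molecular identifiers, so several may stem from 1 molecule.

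In dom34Δ cells 2113497 reads ended in the span with (CGA)12 and 2609548 with (AAA)12. In rps3 cells these were 639545 and 601326 reads, so that values of rps3 cells carry the larger counting error. The span held between 98.7% and 99.3% of the reads of a library. Values below are shares of the reads in the span, and distances are counted upstream from the repeat, so that position 950 is at 0 nt and the first position of the span at 344 nt. A count of 3 reads amounts to 0.000142% and 0.000115% in dom34Δ and to 0.000469% and 0.000499% in rps3 cells, far below the shares described.

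**Figure D1:**
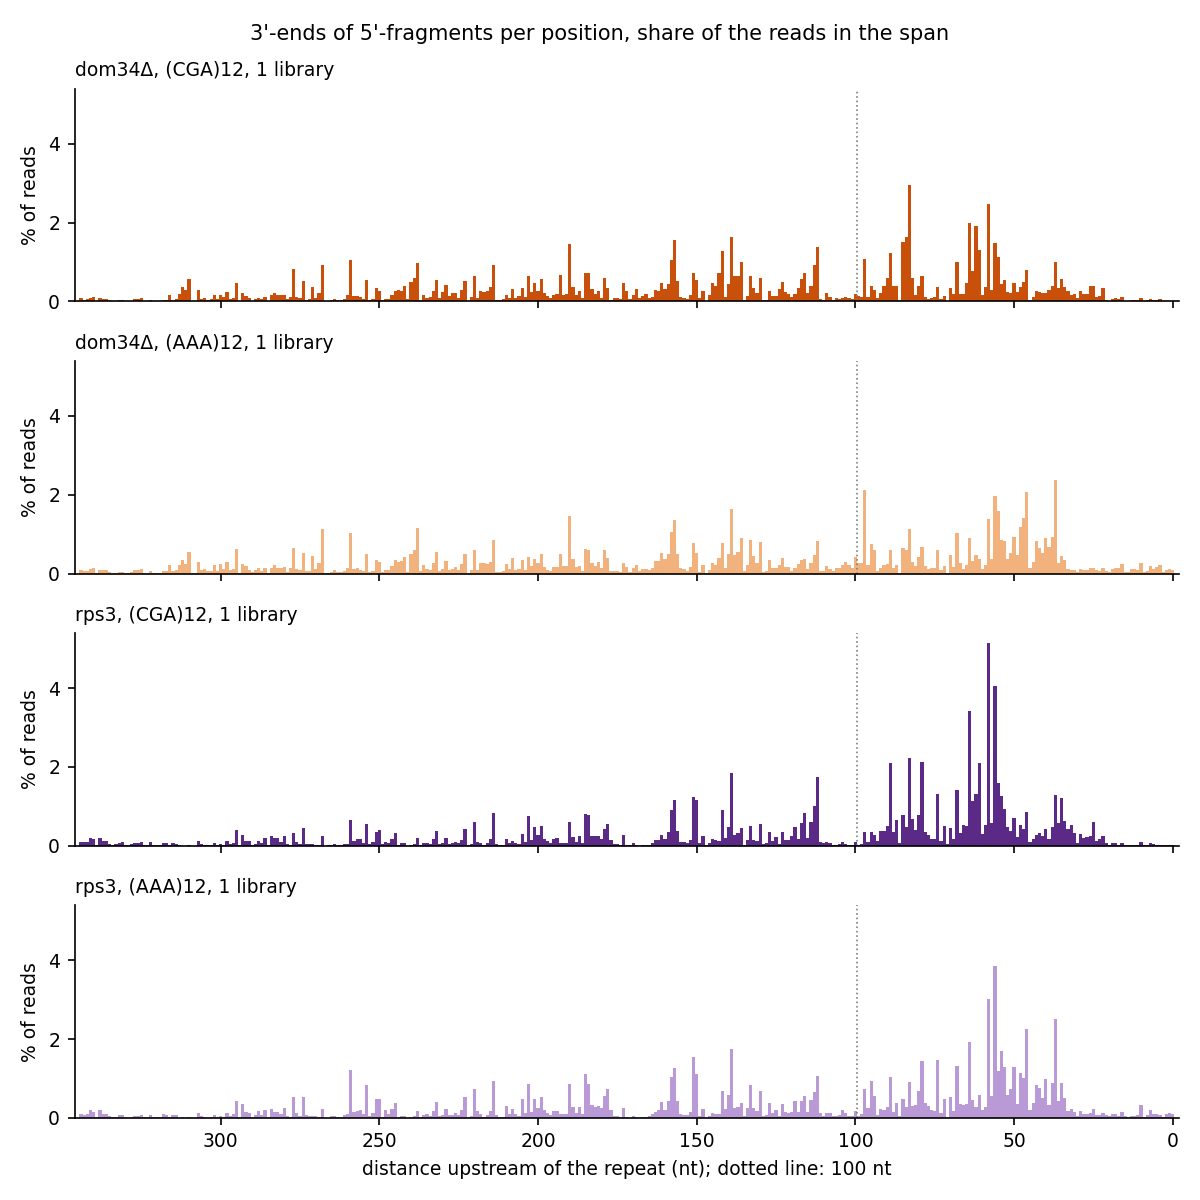
Share of the reads of the span ending at each position (vertical axis, %) against the distance upstream of the repeat (horizontal axis, nt), with 1 library per panel and the dotted line at 100 nt. The tallest position lies at 83 nt in dom34Δ with (CGA)12 and at 37 nt in dom34Δ with (AAA)12, and at 58 and 56 nt in the CGA and AAA libraries of rps3 cells.

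The 2 repeats gave profiles built from largely the same set of positions at different heights. In dom34Δ cells the highest position lay at 83 nt with (CGA)12, with 2.96% of the reads, and at 37 nt with (AAA)12, with 2.36%. In rps3 cells it lay at 58 nt with (CGA)12 (5.13%) and at 56 nt with (AAA)12 (3.86%). Across the 345 positions the log2 shares with CGA and AAA had a Pearson correlation of 0.91 in dom34Δ and 0.94 in rps3 cells, a description of points that share a strain and the reporter sequence. To make the profiles equal, 20.03% of the reads would have to lie at another position in dom34Δ cells, and 19.1% in rps3 cells. The last 100 nt accounted for 14.0 of these 20.03 points and for 13.8 of these 19.1 points. Between the strains with the same repeat, 25.9% would have to lie elsewhere with (CGA)12 and 21.9% with (AAA)12. In the last 100 nt alone the order was the other way, with 12.8 points between the strains for (CGA)12 and 9.29 points for (AAA)12, fewer than the 14.0 and 13.8 points between the repeats. The ends were more concentrated with (CGA)12 in both strains. The 10 highest positions of a library held 18.6% with CGA and 17.4% with AAA in dom34Δ cells, and 26.3% with CGA and 21.5% with AAA in rps3 cells.

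The share of ends in the last 100 nt as a whole differed between the repeats in opposite directions in the strains. In dom34Δ cells 39.9% of the ends lay there with (CGA)12 and 42.0% with (AAA)12, a difference of -2.12 percentage points (95% Newcombe interval -2.21 to -2.03). In rps3 cells 55.4% lay there with (CGA)12 and 51.0% with (AAA)12, a difference of 4.39 points (4.21 to 4.56). The medians had the same contrast, with the median end 136 nt from (CGA)12 and 132 nt from (AAA)12 in dom34Δ cells, against 87 nt from (CGA)12 and 96 nt from (AAA)12 in rps3 cells. With each count capped at its library's 95th percentile the difference in rps3 cells was 2.55 points, and its median difference, -9 nt, was -3 nt with capped counts and -20 nt without the highest position of each library. Whether the strains differed in this was not tested, as each value rests on 1 library.

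Split at 50 nt, the strains showed one pattern. In the 50 nt next to the repeat the share was lower with (CGA)12, at 9.46% with CGA and 17.2% with AAA in dom34Δ cells and at 12.1% with CGA and 17.4% with AAA in rps3 cells. In the next 50 nt it was higher with (CGA)12, at 30.4% with CGA and 24.8% with AAA in dom34Δ cells and at 43.3% with CGA and 33.6% with AAA in rps3 cells. The deficit next to the repeat was -7.77 points in dom34Δ and -5.33 points in rps3 cells, and the excess beyond it was 5.65 and 9.71 points. The sum of the pair is what set the sign over 100 nt: the deficit was the larger of them in dom34Δ and the smaller in rps3 cells. Between 100 and 149 nt the share was again higher with (CGA)12 in both strains, by 2.11 points in dom34Δ and 1.19 points in rps3 cells. Over the last 150 nt the CGA and AAA shares in dom34Δ cells were 57.46% and 57.47%, which did not differ beyond counting error (-0.003 points, -0.093 to 0.086), while in rps3 cells they were 70.2% and 64.6%.

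**Figure D2:**
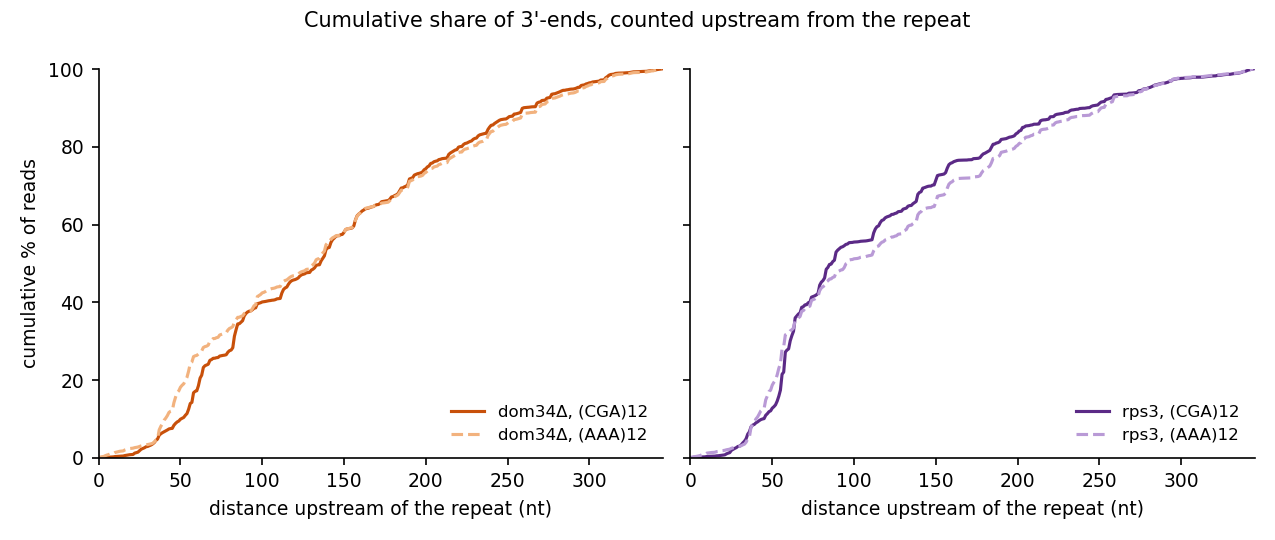
Cumulative share of the ends (vertical axis, %), summed upstream from the repeat (horizontal axis, nt), for dom34Δ (left) and rps3 cells (right), with (CGA)12 as solid and (AAA)12 as dashed lines. The CGA curve lies lowest against the AAA curve at 57 nt in dom34Δ cells (-10.4 points) and at 54 nt in rps3 cells (-7.18 points), and then catches up or passes it.

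Summed upstream from the repeat, the ends with (CGA)12 lagged behind those with (AAA)12 over the first 50 to 60 nt in both strains. The gap was widest at 57 nt in dom34Δ cells, where 14.3% of the CGA ends and 24.6% of the AAA ends had been counted. It was widest at 54 nt in rps3 cells, with 15.8% of the CGA ends and 23.0% of the AAA ends. Past this point the curves differed by strain. In dom34Δ cells the CGA curve came back to the AAA curve and led it by at most 1.88 points, at 234 nt, and in rps3 cells it led by 5.89 points at 93 nt, with 54.3% of the CGA ends and 48.4% of the AAA ends.

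**Figure D3:**
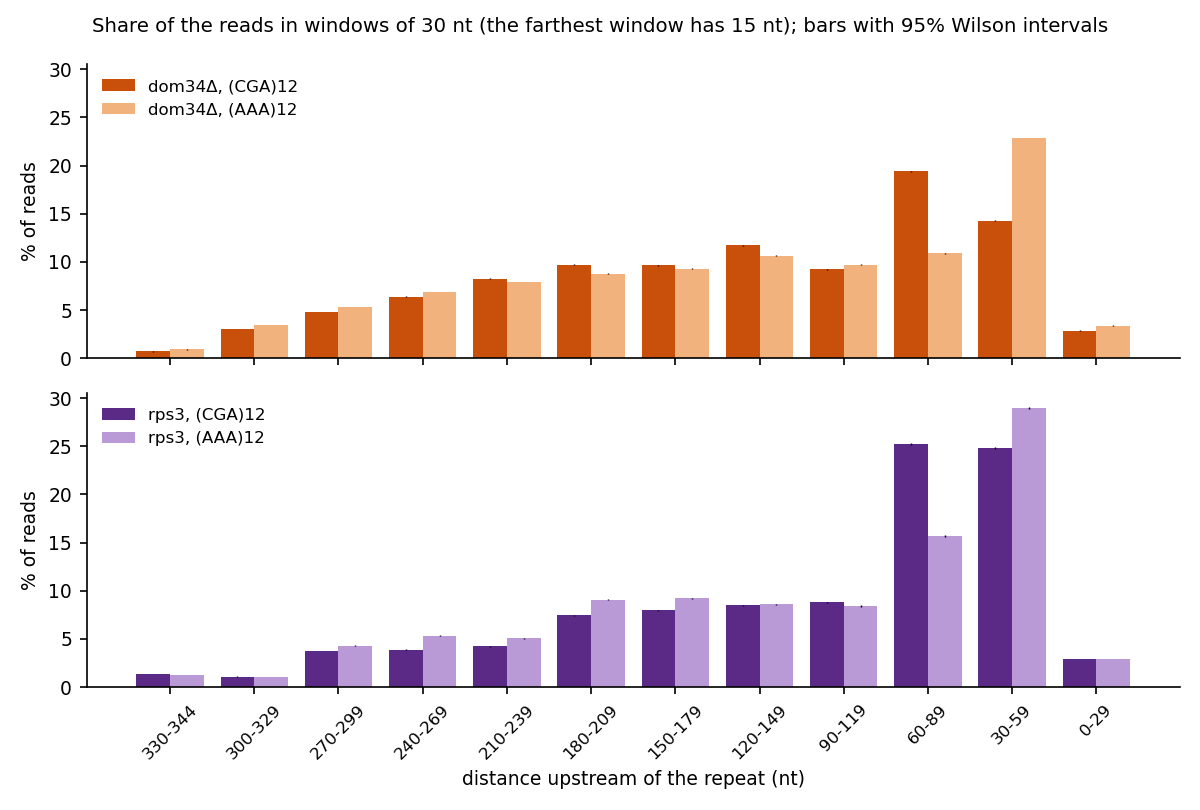
Share of the reads (vertical axis, %) in windows of 30 nt by distance upstream of the repeat (horizontal axis, nt; the farthest window has 15 nt), for dom34Δ (top) and rps3 cells (bottom), with (CGA)12 as the dark and (AAA)12 as the pale bar and 95% Wilson intervals. The windows 30 to 59 nt and 60 to 89 nt differ most, in opposite directions and the same way in both strains.

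By windows of 30 nt, a deficit at 30 to 59 nt and an excess at 60 to 89 nt with (CGA)12 were the widest differences in both strains. The window 30 to 59 nt held 14.2% with (CGA)12 and 22.9% with (AAA)12 in dom34Δ cells (-8.61 points, -8.68 to -8.54), and 24.8% with (CGA)12 and 28.96% with (AAA)12 in rps3 cells (-4.18 points, -4.33 to -4.02). The window 60 to 89 nt held 19.4% with (CGA)12 and 10.9% with (AAA)12 in dom34Δ cells (8.52 points, 8.45 to 8.58), and 25.2% with (CGA)12 and 15.7% with (AAA)12 in rps3 cells (9.49 points, 9.35 to 9.63). The excess was thus 1.78-fold in dom34Δ and 1.604-fold in rps3 cells. As a scale, the same PGK1 positions in the stem-loop libraries, whose stall lies farther downstream, held 5.99% (30 to 59 nt) and 5.68% (60 to 89 nt) of the span's reads in dom34Δ cells and 8.95% and 7.57% in rps3 cells, fewer than with either repeat. With each count capped at its library's 95th percentile, an alternative chosen after seeing the data, the differences were -5.61 and 3.90 points in dom34Δ and -2.91 and 6.20 points in rps3 cells.

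In the window next to the repeat, 0 to 29 nt, the share was 2.86% with (CGA)12 and 3.38% with (AAA)12 in dom34Δ cells, and 2.93% with each repeat in rps3 cells, where the difference lay within counting error (-0.062 to 0.057 points). Of the 12 windows, 5 differed in the same direction in both strains. Of these the window 60 to 89 nt was higher with (CGA)12, and the windows 30 to 59, 240 to 269 and 270 to 299 nt were lower. The window 0 to 29 nt was counted as lower too, although its difference in rps3 cells lay within counting error. With windows of 20 nt, 10 of 18 had the same direction in both strains. The other 7 windows of 30 nt had opposite directions, and 6 of them by more than counting error in both strains. Beyond 90 nt no window differed by more than 1.10 points in dom34Δ or 1.62 points in rps3 cells.

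Position by position, the ratio of the repeats was alike in the strains near the repeat. A position was counted as past 2-fold where the CGA share differed from the AAA share at least 2-fold after 0.005 percentage points were added to both, and 330 positions with a mean share of at least 0.02% entered. In both strains at once, 11 positions (3.33%) were at least 2-fold higher and 26 (7.88%) at least 2-fold lower with (CGA)12. The background per strain was 19 higher (5.76%) and 37 lower (11.2%) in dom34Δ cells, and 14 higher (4.24%) and 29 lower (8.79%) in rps3 cells. No position was past 2-fold in opposite directions. With 0.05 percentage points added, the counts in both strains were 5 higher and 10 lower.

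These positions were crowded near the repeat. All 11 higher positions and 25 of the 26 lower positions lay in the last 100 nt, where 99 positions entered, which makes 11.1% and 25.3% of them. With the last position at 940, an alternative chosen after seeing the data, there were 11 higher and 18 lower positions. Part of the lower positions thus lay in the last 10 nt. Beyond 150 nt, where 182 positions entered, none was past 2-fold in either strain. The typical position differed 2.02-fold one way or the other in dom34Δ and 1.91-fold in rps3 cells in the last 100 nt (median of the absolute log2 ratio), against 1.18-fold and 1.17-fold beyond 150 nt.

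**Figure D4:**
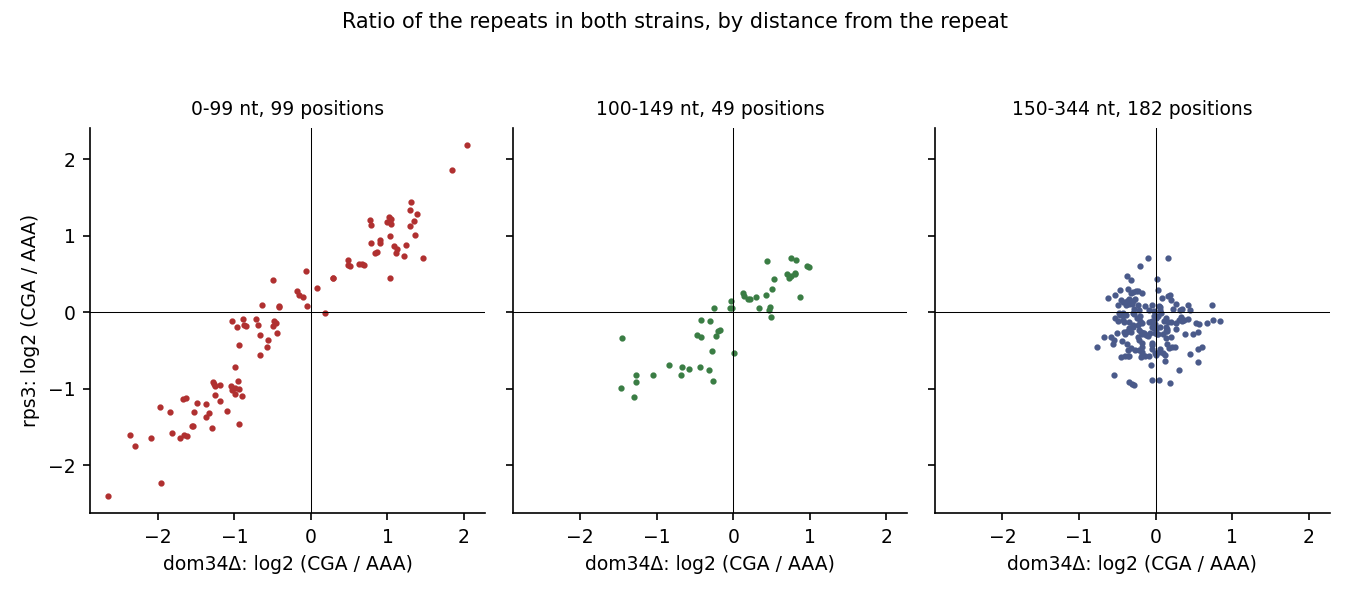
Log2 ratio of the CGA to the AAA share at each position in rps3 cells (vertical axis) against that in dom34Δ cells (horizontal axis), for the last 100 nt (99 positions), 100 to 149 nt (49 positions) and 150 to 344 nt (182 positions). The points lie along the diagonal up to 149 nt, with Pearson correlations of 0.96 and 0.88, and form a round cloud beyond, with -0.04.

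The log2 ratio in dom34Δ cells and that in rps3 cells come from separate libraries and had a Pearson correlation of 0.96 over the 99 positions of the last 100 nt (Spearman 0.96), given as a description because neighbouring positions are not independent and all libraries share the reporter sequence upstream of the repeat. It was 0.97 over 0 to 49 nt, where all 49 positions differed in the same direction in both strains, 0.92 over 50 to 99 nt and 0.88 over 100 to 149 nt. It was 0.23 over 150 to 199 nt and 0.16 over 200 to 249 nt, and -0.04 over the 182 positions beyond 150 nt. The ratios thus matched between strains near the repeat and not far from it. The same direction was seen at 89 of 99 positions of the last 100 nt (89.9%) and at 97 of 182 beyond 150 nt (53.3%), against 229 of 330 over the whole span (69.4%). Over the span 75 positions (22.7%) were higher and 154 (46.7%) lower with (CGA)12 in both strains, and in a single strain 40% of the positions in dom34Δ and 36.1% in rps3 cells were higher.

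**Figure D5:**
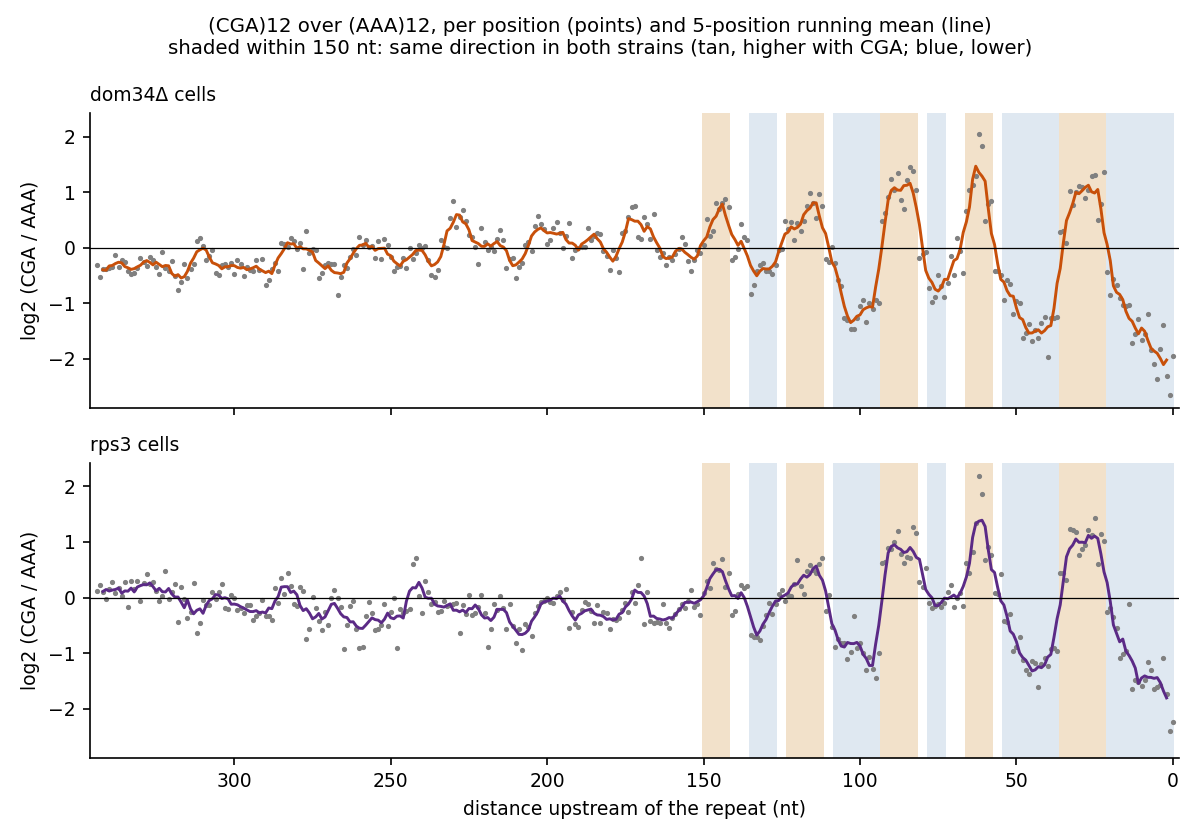
Log2 ratio of the CGA to the AAA share (vertical axis) by distance upstream of the repeat (horizontal axis, nt) in dom34Δ (top) and rps3 cells (bottom), with points for positions and a line for the running mean over 5 positions. Shading marks the 10 bands within 150 nt in which the ratio had the same direction in both strains, tan where higher and blue where lower with (CGA)12. The bands alternate with a spacing of 29.7 ± 3.29 nt (SD, n = 8 spacings that share bands and are not independent).

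Along the reporter the ratio swung between higher and lower with (CGA)12 in alternating bands. Runs of at least 5 neighbouring positions with the same direction in both strains were taken as bands, a definition made after the values had been seen, so that the bands are a description. Within 150 nt there were 10 bands of 6 to 22 nt, 5 lower and 5 higher, and the direction changed at each of the 9 steps from one band to the next. This strict alternation depended on the definition: with runs of at least 8 positions, or with capped counts, there were 7 changes among 9 bands, and with runs of at least 3 positions 9 changes among 11 bands. They took up 127 of the 151 positions from the repeat to the end of the farthest band.

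The band next to the repeat, 0 to 21 nt, held few ends and was lower with (CGA)12. It had 0.863% with CGA and 2.49% with AAA in dom34Δ cells, and 0.766% with CGA and 1.94% with AAA in rps3 cells. At 1 nt the share was 0.0135% with CGA and 0.111% with AAA in dom34Δ (286 and 2899 reads) and 0.0172% with CGA and 0.112% with AAA in rps3 cells (110 and 674 reads), log2 ratios of -2.65 and -2.40. These were the lowest ratios of the span in both strains, and the AAA libraries of both strains lay far above the CGA libraries. The positions at 0, 2, 6 and 13 nt had log2 ratios of -1.96, -2.30, -2.09 and -1.71 in dom34Δ and of -2.24, -1.74, -1.64 and -1.65 in rps3 cells. Of the 21 positions of the band that entered the counts, 14 were at least 2-fold lower in both strains.

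The next band, 22 to 36 nt, was higher with (CGA)12, with 3.96% for CGA and 2.32% for AAA in dom34Δ cells and 5.91% for CGA and 3.37% for AAA in rps3 cells. At 25 nt the share was 0.382% with CGA and 0.152% with AAA in dom34Δ, and 0.595% with CGA and 0.217% with AAA in rps3 cells, which puts both CGA libraries above both AAA libraries. This band and the one before it meet inside the window 0 to 29 nt, where deficit and excess were added up. The small difference of that window thus held differences of both directions, each seen in both strains.

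The band 37 to 54 nt held the most ends of all 10 bands with (AAA)12 in both strains. It held 6.57% with CGA and 15.9% with AAA in dom34Δ cells, and 9.17% with CGA and 17.7% with AAA in rps3 cells, a fold of 0.413 in dom34Δ and 0.518 in rps3 cells. At 37 nt, the highest position of dom34Δ cells with (AAA)12, the share was 0.988% with CGA and 2.36% with AAA in dom34Δ and 1.28% with CGA and 2.51% with AAA in rps3 cells. At 46 nt it was 0.796% with CGA and 2.06% with AAA in dom34Δ and 0.863% with CGA and 2.25% with AAA in rps3 cells, log2 ratios of -1.37 and -1.38. At both positions the libraries fell into pairs by repeat, with the AAA libraries near each other and above both CGA libraries. All 9 positions from 40 to 48 nt were at least 2-fold lower with (CGA)12 in both strains, among them 47 nt (log2 ratios -1.53 and -1.30) and 48 nt (-1.63 and -1.12), while 50 nt came just short of it (-0.95 and -0.89).

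The band 58 to 66 nt held the most ends of all 10 bands with (CGA)12 in rps3 cells, and in dom34Δ cells it came second to the band 82 to 93 nt. It held 9.62% with CGA and 4.08% with AAA in dom34Δ cells (2.36-fold), and 14.9% with CGA and 7.39% with AAA in rps3 cells (2.02-fold). The widest ratio of the span in this direction was at 62 nt, with 1.93% for CGA and 0.464% for AAA in dom34Δ (40693 and 12101 reads) and 1.32% for CGA and 0.287% for AAA in rps3 cells (8419 and 1723 reads). Its log2 ratio was 2.04 with a counting standard error of 0.015 in dom34Δ and 2.18 with 0.038 in rps3 cells, and both CGA libraries were far above both AAA libraries. The neighbours at 61 and 63 nt had log2 ratios of 1.84 and 1.29 in dom34Δ and of 1.86 and 1.33 in rps3 cells.

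Taller positions of the same band differed less. At 58 nt, the highest position of rps3 cells with (CGA)12, the share was 2.48% with CGA and 1.38% with AAA in dom34Δ and 5.13% with CGA and 3.01% with AAA in rps3 cells, log2 ratios of 0.84 and 0.77. Here the libraries did not pair by repeat, since rps3 cells with (AAA)12 lay above dom34Δ cells with (CGA)12. At 64 nt it was 1.98% with CGA and 0.903% with AAA in dom34Δ and 3.42% with CGA and 1.93% with AAA in rps3 cells, folds of 2.19 and 1.77.

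Between these bands, at 55 to 57 nt, the strains parted. At 56 nt, the highest position of rps3 cells with (AAA)12, the share was 1.47% with CGA and 1.97% with AAA in dom34Δ cells, and 4.05% with CGA and 3.86% with AAA in rps3 cells. The log2 ratio was -0.42 in dom34Δ and 0.07 in rps3 cells. At 55 nt, singled out after the values had been seen as the position of the last 100 nt with the widest split, it was -0.50 in dom34Δ and 0.42 in rps3 cells. The other positions of the last 100 nt with opposite directions, 7 in number, lay between 68 and 81 nt.

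Of the 10 bands, 73 to 78 nt had the smallest difference in percentage points in both strains. It held 0.769% with CGA and 1.29% with AAA in dom34Δ cells and 2.39% with CGA and 2.66% with AAA in rps3 cells. In dom34Δ cells this is a fold of 0.595, so that by fold the band was not the weakest there. In rps3 cells this is a fold of 0.900 and hardly a deficit. At 79 nt, among the 5 highest positions of rps3 cells with (CGA)12, the share was 0.646% with CGA and 0.678% with AAA in dom34Δ and 2.11% with CGA and 1.45% with AAA in rps3 cells. The fold of CGA over AAA was 0.953 in dom34Δ and 1.45 in rps3 cells, so that an excess with (CGA)12 was seen in rps3 cells and not in dom34Δ cells.

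The band 82 to 93 nt was again higher with (CGA)12. It held 10.1% with CGA and 4.30% with AAA in dom34Δ cells (2.34-fold) and 8.70% with CGA and 4.37% with AAA in rps3 cells (1.99-fold). At 83 nt, the highest position of dom34Δ cells with (CGA)12, the share was 2.96% with CGA and 1.133% with AAA in dom34Δ (62661 and 29564 reads) and 2.23% with CGA and 0.916% with AAA in rps3 cells (14241 and 5506 reads). The log2 ratios were 1.38 and 1.28, and both CGA libraries stood well above both AAA libraries. The strains divided the excess differently over the band: 84 nt was used more in dom34Δ cells, with 1.64% for CGA and 0.590% for AAA in dom34Δ and 0.472% for CGA and 0.287% for AAA in rps3 cells, while 89 nt was used more in rps3 cells, with 1.23% for CGA and 0.597% for AAA in dom34Δ and 2.09% for CGA and 1.04% for AAA in rps3 cells.

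Farther upstream the alternation went on with smaller shares. The band 94 to 108 nt held 2.89% with CGA and 5.96% with AAA in dom34Δ cells and 1.55% with CGA and 3.47% with AAA in rps3 cells, with folds of 0.485 and 0.448. At 97 nt the share was 1.07% with CGA and 2.12% with AAA in dom34Δ and 0.349% with CGA and 0.737% with AAA in rps3 cells, a position used more in dom34Δ cells and lower with (CGA)12 in both. The band 112 to 123 nt was higher with (CGA)12, 1.61-fold in dom34Δ and 1.41-fold in rps3 cells. The band 127 to 135 nt was lower, with folds of 0.751 and 0.712. The band 142 to 150 nt was higher, 1.52-fold in dom34Δ and 1.21-fold in rps3 cells. Between the bands, the tall position at 139 nt hardly differed, with 1.63% for CGA and 1.64% for AAA in dom34Δ and 1.83% for CGA and 1.76% for AAA in rps3 cells.

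Summed over the 5 higher bands, 57 positions held 33.3% of the ends with (CGA)12 and 16.8% with (AAA)12 in dom34Δ cells, and 39.0% with (CGA)12 and 22.2% with (AAA)12 in rps3 cells. The 70 positions of the 5 lower bands held 13.4% with (CGA)12 and 28.8% with (AAA)12 in dom34Δ cells, and 15.8% with (CGA)12 and 28.5% with (AAA)12 in rps3 cells. Since these bands were defined by their direction in both strains, bands were also set in one strain and measured in the other. As background, 148 positions of the last 150 nt entered the counts. Of these, 41.2% were higher with (CGA)12 in dom34Δ and 48.0% in rps3 cells. The ratio at neighbouring positions within 150 nt correlated at 0.89 in dom34Δ and 0.88 in rps3 cells. Positions of a band are thus not independent, and their counts are a description. Of the 5 higher bands set in dom34Δ cells within 150 nt, all 5 were higher in rps3 cells too, at 57 of 58 positions, and summed to 39.0% with CGA and 22.2% with AAA there. Of the 5 lower bands set in dom34Δ cells, 4 were lower in rps3 cells, at 71 of 81 positions in all, and summed to 26.7% with CGA and 37.9% with AAA. The exception was 70 to 81 nt, where the fold in rps3 cells was 1.09. In the reverse direction, all 10 bands set in rps3 cells kept their direction in dom34Δ cells, where the higher ones summed to 37.4% with CGA and 22.0% with AAA and the lower ones to 13.6% with CGA and 28.95% with AAA. These counts hold within 150 nt only, the zone where the ratios of the strains matched, so they are a description. Of the 11 runs set in rps3 cells beyond 150 nt, most had the opposite direction in dom34Δ cells. Of the 14 runs set there in dom34Δ cells, most kept their direction in rps3 cells.

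The bands followed each other at a fairly even spacing. Centres of neighbouring bands of the same direction lay 25.5 to 35 nt apart, with a mean of 29.7 ± 3.29 nt (SD, n = 8 spacings). These spacings share bands of 1 region and are not independent, so the SD is a description only. They include the band 73 to 78 nt, which runs of at least 8 positions would leave out. Smoothed over 5 positions, the ratio peaked at 27, 63, 84, 115 and 144 nt in dom34Δ cells and at 27, 61, 89, 114 and 145 nt in rps3 cells, and its troughs lay at 3, 42, 75, 103 and 133 nt in dom34Δ and at 2, 45, 76, 97 and 133 nt in rps3 cells. In the same order, the peaks had smoothed log2 ratios of 1.125, 1.47, 1.16, 0.81 and 0.79 in dom34Δ cells and of 1.119, 1.39, 0.95, 0.57 and 0.50 in rps3 cells, so that the second peak from the repeat was the highest and the 2 farthest were the lowest in both strains. Within 150 nt and for lags of 10 to 60 nt, the autocorrelation of the ratio was highest at a lag of 30 nt in both strains (0.40 in dom34Δ and 0.31 in rps3 cells, over 120 pairs of positions) and lowest at 15 nt in dom34Δ (-0.57) and at 18 nt in rps3 cells (-0.56). The maximum was not sharp. In dom34Δ cells the value was still 0.379 at a lag of 33 nt, and at 57 nt it was 0.386 in dom34Δ and 0.307 in rps3 cells. The autocorrelation describes the positions of 1 region that share a sequence and was not tested.

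The profiles of the repeats matched best in register. Without a shift, the log2 shares with CGA and AAA correlated at 0.91 in dom34Δ and 0.96 in rps3 cells over the 285 positions that allow shifts of up to 30 nt. With one profile shifted against the other, the correlation was at most 0.30 in dom34Δ cells, at a shift of 15 nt, and 0.50 in rps3 cells, at 1 nt. These correlations cover the span and not the last 150 nt alone. All libraries share the reporter sequence upstream of the repeat, which by itself favours a match without a shift. Whether ends were displaced between the repeats within 150 nt was not tested.

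Beyond 150 nt the differences were small and had the same direction in both strains at 97 of 182 positions (53.3%). The ratio still varied from stretch to stretch, with its highest autocorrelation at a lag of 28 nt in dom34Δ cells (0.54) and of 42 nt in rps3 cells (0.31), but it did not vary in step in the strains, as the correlation of -0.04 between them describes. Runs with the same direction in both strains numbered 7 with 53 positions, and all 7 were lower with (CGA)12. Lower was the more common direction there in each strain. Of the 182 positions, 39.0% were higher with (CGA)12 in dom34Δ and 26.4% in rps3 cells. In both strains at once, 80 were lower and 17 higher. Ends 150 nt or more away made up 42.5% of the reads with each repeat in dom34Δ cells, and 29.8% with (CGA)12 and 35.4% with (AAA)12 in rps3 cells.

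Every library used 1 of 3 positions more than the others, to nearly the same extent with both repeats. The distances that leave a remainder of 1 on division by 3 held 47.6% of the ends with (CGA)12 and 48.7% with (AAA)12 in dom34Δ cells, and 45.5% with (CGA)12 and 44.98% with (AAA)12 in rps3 cells. Those divisible by 3 held the fewest, between 19.8% and 21.2%. In the last 100 nt the median log2 ratio lay between -0.58 and -0.49 in the 3 classes in dom34Δ cells and between -0.16 and -0.09 in rps3 cells. The classes were not assigned to codon positions, for want of the reporter sequences.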

How the data were processed

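Total RNA pooled from at least 2 cultures was ligated to a 3' adaptor by the authors, reverse transcribed and amplified from a primer at PGK1 position 585. Per the submitters' processing notes the tools were cutadapt 1.12, Novoalign, SAMtools 1.13 and bedtools, and alignment was to the reporter. The deposited values are raw counts of reads per position, not normalized. How the aligner was set and whether duplicates were removed is not given in the sources used here. Unlisted positions were set to 0. The 345 positions of the span were converted to shares. Ratios were taken on share + 0.005 percentage points at positions with a mean share of at least 0.02% (330 of 345). Shares have 95% Wilson and differences 95% Newcombe intervals. The named positions are the 5 highest of each library, the 5 with the largest difference in each direction in each strain, and the 5 in each direction with the largest ratio in the strain where it is smaller. Members and lists were chosen with earlier results of these data known. Capped counts, other spans, window sizes, minimums, folds and pseudocounts were tried as alternatives. The counting of positions past 2-fold was tested on simulated data. Python 3.11.15, NumPy 2.4.6, pandas 2.3.3, SciPy 1.17.1, statsmodels 0.14.6 and matplotlib 3.10.9 were used.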

Additional observations from a re-analysis of the deposited data

Results flagged for a closer look

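The difference between (CGA)12 and (AAA)12 ran in opposite directions in the strains for several sums of positions, each given as CGA minus AAA in percentage points of the reads in the span. The difference between the strains was not tested, because each value rests on 1 library per condition. For the last 100 nt it was -2.12 in dom34Δ and 4.39 in rps3 cells. By windows it was -0.484 in dom34Δ and 0.376 in rps3 cells at 90 to 119 nt, 1.10 in dom34Δ and -0.103 in rps3 cells at 120 to 149 nt, and 0.351 in dom34Δ and -1.26 in rps3 cells at 150 to 179 nt. Farther upstream it was 0.912 in dom34Δ and -1.62 in rps3 cells at 180 to 209 nt, 0.345 in dom34Δ and -0.804 in rps3 cells at 210 to 239 nt, and -0.205 in dom34Δ and 0.110 in rps3 cells at 330 to 344 nt.

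Some reads ended past the repeat, outside the span that was compared. They made up 0.786% of all reads with (CGA)12 and 0.698% with (AAA)12 in dom34Δ cells, and 1.32% with (CGA)12 and 0.787% with (AAA)12 in rps3 cells, in each case more than the share to which 3 reads amount.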

How the results depend on the processing

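The opposite directions over the last 100 nt were seen under each of the 5 alternatives tried. In dom34Δ cells the difference of -2.12 points was -2.65 with each count capped at its library's 95th percentile, -2.55 without the highest position of each library, -2.65 with the span starting 50 nt nearer to the repeat and -2.57 with the last position at 940. In rps3 cells the 4.39 points were 2.55 with capped counts, 3.94 without the highest positions and 4.05 as a share of all reads. The difference of the medians, 4 nt in dom34Δ cells and -9 nt in rps3 cells, was 2 and -3 nt with capped counts, 3 and -20 nt without the highest positions and 6 and -11 nt with the later start, and 3 nt in dom34Δ cells with the last position at 940. With windows of 20 nt, 10 of 18 had the same direction in both strains. Positions at least 2-fold higher in both strains, 11 in number, were 33 past 1.5-fold, 5 with a pseudocount of 0.05 points and 4 in sums of 3 neighbours. The 26 lower ones were 45, 10 and 11, and 15 with a minimum mean share of 0.1%. With that minimum the higher count was 11 as before. The cause of these shifts was not tested.

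Of 25 further values chosen after seeing the data, the correlation of the ratios beyond 150 nt changed its sign, to 0.16 with the later start of the span, and stayed weak. That over the last 100 nt was between 0.94 and 0.96. With the last position at 940, 18 positions were at least 2-fold lower and 11 at least 2-fold higher in both strains. The window 30 to 59 nt had -5.61 points in dom34Δ and -2.91 in rps3 cells with capped counts, and the window 60 to 89 nt had 3.90 and 6.20. There were 9 to 11 bands under 5 other definitions, and under 3 of these some neighbouring bands had the same direction. No paired analysis was possible because each condition has 1 library. All positions had reads, but some far from the repeat had few in rps3 cells. At 312 nt there were 25 reads with CGA and 53 with AAA. The counting standard error of the log2 ratio there was 0.35, and at 190 nt it was 0.031. The SD of these ratios beyond 150 nt was 0.31 in rps3 cells. At 312 nt the counting error was thus larger than that SD, and at 190 nt far smaller. Whether depth played a part in the weak match of the strains beyond 150 nt was not tested. Library preparation has no replicate.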
